A study of Mus musculus with 6 samples.

Results

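The genes described here encode the nuclear receptors and the FGF receptor complex that control bile acid synthesis in the liver. They were chosen by name: Nr5a2, Nr0b2, Nr1h4, Nr1h3, Nr1h2, Nr1i2, Nr1i3, Rxra, Fgfr4 and Klb. Of these 10 genes, 9 had a probe set annotated to that gene alone, with 20 such probe sets between them, and Nr1h2, which encodes LXR beta, was not analysed here. All 9 genes had at least 1 probe set bright enough to be tested, with a mean above the 40th percentile of all probe sets, out of 12705 genes tested in all; 16 of the 20 probe sets passed that filter. RNA from the liver of each mouse was hybridised to its own Affymetrix MG 430 2.0 array, for 3 Retnla-Tg mice (Tg 5, Tg 6 and Tg 7) and 3 Retnla-non-Tg mice (non-Tg 1, non-Tg 2 and non-Tg 3). The Retnla-Tg mice carry a transgene for Retnla, a secreted resistin-like protein, and the Retnla-non-Tg mice do not. Both groups were male C57BL6/J mice aged 3 months that were moved to a high-fat diet with 21% fat and 0.15% cholesterol at 8 weeks of age and ate it for 4 weeks, so no liver on a standard diet was part of the comparison. Which promoter drives the transgene, and in which cells, the labels do not say. The comparison asks how these receptor genes stand in Tg livers beside non-Tg livers on this diet.

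Bile acids are made from cholesterol in hepatocytes, and the receptors form a feedback loop around that synthesis. FXR, encoded by Nr1h4, binds bile acids and induces SHP, encoded by Nr0b2, a receptor without a DNA-binding domain that represses LRH-1, encoded by Nr5a2, at the genes of the synthesis enzymes. A second branch starts in the ileum, where bile acids induce FGF15, which reaches the liver and acts on FGFR4 with its coreceptor beta-Klotho, encoded by Klb. LXR alpha, encoded by Nr1h3, senses oxysterols and in rodents raises Cyp7a1, while PXR (Nr1i2) and CAR (Nr1i3) respond to foreign compounds and toxic bile acids, and FXR, LXR, PXR and CAR all pair with RXR alpha, encoded by Rxra.

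The promoters of Nr0b2 and Nr5a2 are shown because they join the feedback loop, in which LRH-1 acts at the SHP gene. Nr5a2 has several annotated starts. Whether these starts bear on the different results of its probe sets below was not tested. Each window runs from 250 bases before to 50 bases after an annotated start, 5′ to 3′ on the gene's strand, from RefSeq on GRCm38.p6. Capitals mark TCAAGG, the core of the LRH-1 site, or AGGTCA, the nuclear receptor half-site, searched on both strands. The windows are chr4:133553126-133553425 on the plus strand for Nr0b2, and chr1:136960399-136960698 and chr1:136953581-136953880 on the minus strand for Nr5a2.
Nr0b2: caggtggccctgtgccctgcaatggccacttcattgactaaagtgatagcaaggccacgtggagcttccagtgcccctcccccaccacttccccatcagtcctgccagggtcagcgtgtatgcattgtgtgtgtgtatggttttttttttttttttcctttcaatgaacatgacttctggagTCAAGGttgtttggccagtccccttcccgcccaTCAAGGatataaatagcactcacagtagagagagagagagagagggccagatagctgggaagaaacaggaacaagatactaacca
Nr5a2, upstream start: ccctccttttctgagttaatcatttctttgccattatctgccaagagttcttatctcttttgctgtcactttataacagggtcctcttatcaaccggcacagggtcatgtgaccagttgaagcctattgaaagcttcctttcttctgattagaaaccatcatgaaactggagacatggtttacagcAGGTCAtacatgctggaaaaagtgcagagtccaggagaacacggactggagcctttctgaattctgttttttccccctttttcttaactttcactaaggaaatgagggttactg
Nr5a2, downstream start: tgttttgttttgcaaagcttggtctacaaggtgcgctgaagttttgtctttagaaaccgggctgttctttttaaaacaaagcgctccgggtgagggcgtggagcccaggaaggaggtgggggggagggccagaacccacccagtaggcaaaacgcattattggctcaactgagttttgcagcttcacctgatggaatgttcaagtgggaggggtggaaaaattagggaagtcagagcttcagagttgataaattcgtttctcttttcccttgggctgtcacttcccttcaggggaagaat

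The Nr0b2 window held TCAAGG at 2 places on the gene's strand, beginning 68 and 35 bases before the start, and the upstream Nr5a2 window held AGGTCA once, beginning 64 bases before its start. Neither sequence lay in the downstream Nr5a2 window. TCAAGG lay in 1 of the 13 windows of the 10 genes and AGGTCA in 3 of them, against 14.4% and 16.3% of all 32851 promoter windows in the table.

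The transgene itself separated the groups. Retnla had log2 signals of 16.04, 15.91 and 16.04 in Tg livers, against 6.03, 7.41 and 6.48 in non-Tg livers (limma adjusted p = 4.07e-07, from a moderated linear model with Benjamini-Hochberg adjustment over all genes). The hepatocyte marker Alb, serum albumin, lay between 16.20 and 16.33 on the log2 scale in Tg livers and between 16.24 and 16.39 in non-Tg livers. All 10 of the hepatocyte markers passed the filter on dim probe sets. The log2 of their summed unlogged signals was 19.18 to 19.27 in Tg livers and 19.15 to 19.21 in non-Tg livers. Such a sum follows its brightest genes, and 2 of the 10 lay apart between groups without passing: Tat, tyrosine aminotransferase, differed by 1.12 ± 0.24 (SE; limma adjusted p = 0.468) and Apob, the apolipoprotein of VLDL, by -0.20 ± 0.08 (SE; limma adjusted p = 0.807). Among 11 lists of markers of other cells, the sums of 2 lay apart between groups. Of the erythroid markers 3 of 6 passed the filter. The log2 of their summed signals was 12.13 to 12.63 in Tg livers and 11.71 to 11.91 in non-Tg livers. The only other tested erythroid probe set, of Hbb-b2, also lay apart, at 1.19. Of the ileal markers 2 of 6 passed, Fabp2 and Slc10a2. The log2 of their summed signals was 13.10 to 13.23 in Tg livers and 13.32 to 13.61 in non-Tg livers. That sum is carried by the brighter Fabp2, which differed by -0.35, while Slc10a2 differed by 0.43 with overlapping groups. In lists whose sums overlapped, single genes also lay apart, as did 11.7% of all genes tested. Of 7 tested stellate cell markers, Lrat and Reln differed by -0.93 and -0.52. Of the 7, 3 were above 0, up to 0.81, and 4 below, with a list median of -0.25. A second Reln probe set gave 0.89 with overlapping groups, and 1 of 9 other stellate probe sets lay apart, higher in Tg livers. Of 5 tested T and NK cell markers Gzma differed by 1.39, with a list median of 1.12. Of 4 other tested T and NK probe sets 2 lay apart, both of Zap70 and higher in Tg livers, at 0.50 and 0.69. Also apart were 1 of 7 tested sinusoidal endothelial markers, lower in Tg livers, and 1 of 4 tested pancreatic acinar markers, higher in Tg livers. No gene of these marker lists passed the test. Their part in the differences below was not tested. The arrays also fell into 2 sets by the bacterial bioC control, which is added before hybridization: Tg 5, Tg 6 and non-Tg 1 were low for it, and Tg 7, non-Tg 2 and non-Tg 3 were high. No label explains these sets, so differences are also given within them.

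None of the 9 receptor genes passed the test between Tg and non-Tg livers. By limma, 0 of 9 reached an adjusted p under 0.05, while over all genes 0.0157% did. At an unadjusted limma p under 0.05 there were 2 of the 9, Nr5a2 and Nr1h3, against 6.05% of all genes. The 3 Tg values lay wholly apart from the 3 non-Tg values in the same 2 genes, which is 22.2% of 9 against 11.7% of all genes, and with so few members that share rests on single genes. Differences ran from -0.55 for Nr5a2 to 0.30 for Nr1h3 on the log2 scale, 3 above and 6 below 0, with a median of -0.08 against 0.01 over all genes. The median size of the difference without regard to sign was 0.13, against 0.18 over all genes. Adjusted p ran from 0.735 to 0.994. On the highest-mean probe sets, the 95% confidence intervals of the 9 ratios of Tg to non-Tg signal all lay between 0.541-fold and 1.47-fold. Intervals of other tested probe sets reached 1.89-fold for Nr1i2 (1451807_at) and 2.20-fold for Fgfr4 (1427846_x_at). A p that misses the threshold does not show a gene to be level.

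**Figure D1:**
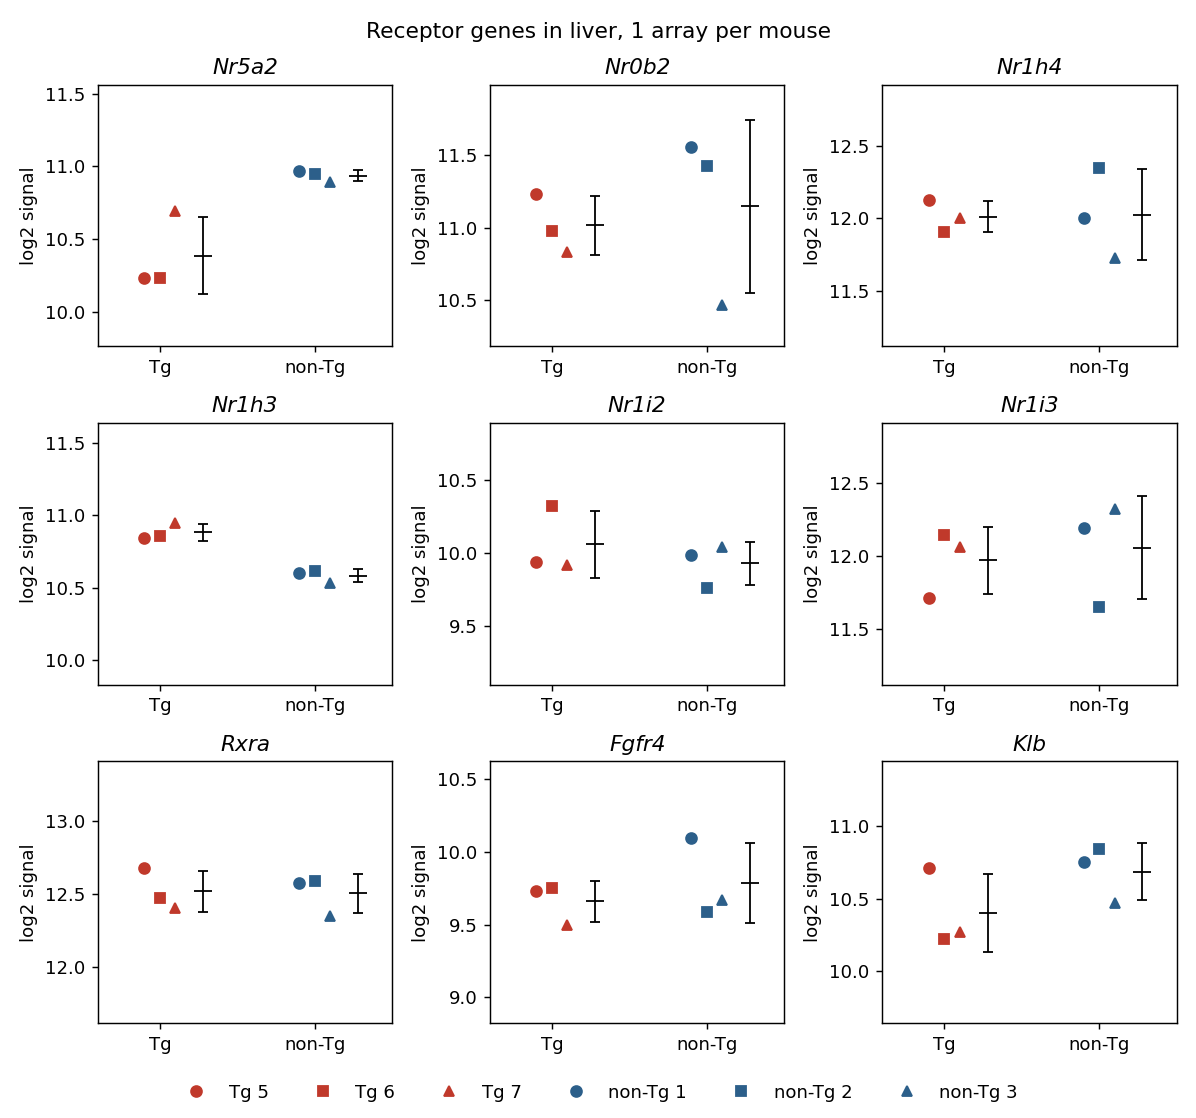
Log2 signal of the highest-mean probe set of each receptor gene (y axis, each panel spanning the same range) in 3 Tg livers (red, left) and 3 non-Tg livers (blue, right), with 1 point per mouse and the mean with its SD beside the points. The Tg points of Nr5a2 lie below and those of Nr1h3 above all non-Tg points, and in the other 7 genes the groups overlap.

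The bile acid sensor and its repressor target showed no difference that passed. Nr1h4 had log2 signals of 12.13, 11.91 and 12.00 in Tg livers, against 12.00, 12.35 and 11.73 in non-Tg livers. The Tg values lay inside the non-Tg range, and the difference was -0.01 ± 0.15 (SE; limma adjusted p = 0.994), with a 95% confidence interval of -0.36 to 0.33. Nr0b2 had log2 signals of 11.23, 10.98 and 10.84 in Tg livers, against 11.56, 11.42 and 10.47 in non-Tg livers. The non-Tg values enclosed all Tg values, with non-Tg 3 the lowest mouse of all. Nr0b2 differed by -0.13 ± 0.26 (SE; limma adjusted p = 0.935), which turned to 0.07 without non-Tg 1 and to 0.00 without non-Tg 2, and was -0.47 without non-Tg 3.

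Nr0b2 also varied most among mice of 1 group. Its residual SD was 0.44 on the log2 scale, higher than in 73.3% of all genes tested, and the SD was 0.20 in Tg and 0.60 in non-Tg livers (n = 3 each). The median residual SD was 0.22 over the 9 genes and 0.27 over all genes. Nr1h3 was at the other end with 0.05, higher than in only 1.26% of all genes. The non-Tg 3 liver had the lowest value of the 6 mice in 4 of the 9 genes, namely Nr0b2, Nr1h4, Nr1h3 and Rxra, while it was lowest in 18.4% of all genes.

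LRH-1 gave a different answer on different probe sets. On its brightest probe set, 1456521_at, Nr5a2 had log2 signals of 10.23, 10.23 and 10.69 in Tg livers, against 10.97, 10.95 and 10.89 in non-Tg livers. All Tg values lay below all non-Tg values, with Tg 7 nearest to them. The difference was -0.55 ± 0.15 (SE), a ratio of 0.683 with a 95% confidence interval of 0.541 to 0.863, and it did not pass (limma adjusted p = 0.735; exact permutation p = 0.1). With 20 assignments of mice to groups, no permutation p can go below 0.1. Within the low and high bioC sets Nr5a2 differed by -0.74 and -0.23, and a fit with the sets as a block gave -0.48 (limma adjusted p = 0.721).

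The other probe sets of Nr5a2 did not show that separation. On 1420410_at the log2 signals were 10.73, 10.41 and 10.65 in Tg livers, against 10.73, 10.56 and 10.56 in non-Tg livers, a difference of -0.02 ± 0.14 (SE). On 1449706_s_at they were 9.81, 9.52 and 9.55 in Tg livers, against 9.91, 9.38 and 9.47 in non-Tg livers, a difference of 0.03 ± 0.18 (SE). The groups overlapped on both, and their 95% confidence intervals were -0.33 to 0.28 and -0.37 to 0.44. With the 3 probe sets averaged Nr5a2 differed by -0.18 and did not pass (limma unadjusted p = 0.204, adjusted p = 0.8705). The groups were then apart only barely, with Tg 7 and non-Tg 2 nearly touching. A further probe set, 1449707_at, lay below the filter, with log2 signals of 3.10 to 4.90 in Tg and 3.87 to 6.40 in non-Tg livers. The platform annotation ties 1456521_at to a GenBank record and 1420410_at to a RefSeq mRNA.

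The disagreement was also described on its own, by a contrast chosen with the earlier result for Nr5a2 known. With 20 assignments its permutation p could not fall under 0.05. The log2 signal of 1456521_at minus the mean of the other 2 tested Nr5a2 probe sets was -0.04, 0.27 and 0.60 in Tg livers, against 0.65, 0.97 and 0.88 in non-Tg livers. The groups did not overlap, and this contrast differed by -0.56 with an exact permutation p of 0.1, the smallest possible, or 0.133 after Benjamini-Hochberg adjustment over the 4 genes with several tested probe sets. It was -0.53 and -0.33 within the low and high bioC sets.

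LXR alpha had the highest positive difference of the 9 genes and the tightest groups. Nr1h3 had log2 signals of 10.84, 10.86 and 10.95 in Tg livers, against 10.60, 10.62 and 10.53 in non-Tg livers. Every Tg value lay above every non-Tg value. The difference was 0.30 ± 0.11 (SE), a ratio of 1.23 with a 95% confidence interval of 1.03 to 1.47, and it did not pass (limma adjusted p = 0.787; exact permutation p = 0.1). It was 0.25 and 0.37 within the low and high bioC sets and 0.31 with the sets as a block. With each array centred on its median the difference was 0.23 and the groups overlapped.

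Nr1h3 is also active in macrophages, so the Kupffer cell markers are given beside it. All 8 of 8 Kupffer markers, such as Clec4f, Cd5l and Adgre1, passed the filter, and 0 passed the test. All 8 had a positive difference, from 0.05 for Vsig4 to 0.66 for Marco, each with overlapping groups, and the list median was 0.26. Within the low and high bioC sets that median was 0.53 and -0.41. The log2 of the summed signals of the list was 14.11 to 15.49 in Tg livers and 14.45 to 14.64 in non-Tg livers. Their part in the Nr1h3 difference was not tested. In pieces of liver, fewer cells of a type and less RNA per cell cannot be told apart.

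The xenobiotic receptors PXR and CAR did not pass either, and PXR again depended on the probe set. On its highest-mean probe set, 1425723_at, Nr1i2 had log2 signals of 9.94, 10.32 and 9.92 in Tg livers, against 9.98, 9.76 and 10.04 in non-Tg livers, a difference of 0.13 ± 0.16 (SE; limma adjusted p = 0.888). The groups overlapped, and without Tg 6 the difference was -0.00. On the second probe set, 1451807_at, the log2 signals were 10.04, 10.32 and 9.94 in Tg livers, against 9.54, 9.44 and 9.60 in non-Tg livers. There every Tg value lay above every non-Tg value, and the difference was 0.58 ± 0.15 (SE; 95% confidence interval 0.24 to 0.92), which did not pass over the 22702 probe sets tested (limma adjusted p = 0.811). It was 0.64 and 0.42 within the low and high bioC sets.

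The platform annotation ties both Nr1i2 probe sets to the same sequence record. The first minus the second was -0.11, 0.01 and -0.03 on the log2 scale in Tg livers, against 0.45, 0.32 and 0.44 in non-Tg livers. The groups did not overlap, and the contrast differed by -0.45 (exact permutation p = 0.1, adjusted 0.133). Averaged over both probe sets Nr1i2 differed by 0.35 with the groups apart, and still did not pass. Nr1i3 had a single probe set, with log2 signals of 11.71, 12.14 and 12.06 in Tg livers, against 12.19, 11.65 and 12.32 in non-Tg livers. Its groups overlapped and differed by -0.08 ± 0.18 (SE; limma adjusted p = 0.947).

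**Figure D2:**
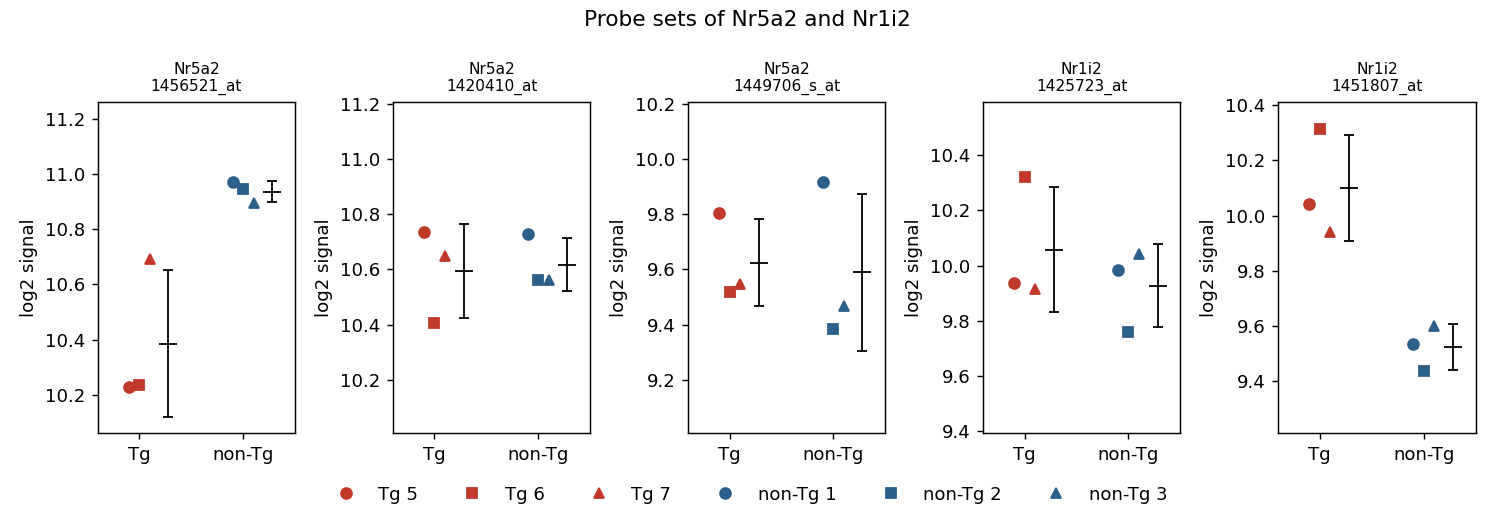
Log2 signal (y axis, each panel spanning the same range) of the 3 tested Nr5a2 probe sets and the 2 tested Nr1i2 probe sets in Tg livers (red, left) and non-Tg livers (blue, right), with 1 point per mouse and the mean with its SD. The groups lie apart on 1456521_at and on 1451807_at, in opposite directions, and overlap on the other 3.

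The shared partner RXR alpha did not pass. Rxra had log2 signals of 12.68, 12.47 and 12.41 in Tg livers, against 12.58, 12.59 and 12.35 in non-Tg livers. The groups overlapped and differed by 0.01 ± 0.11 (SE; limma adjusted p = 0.989), with a 95% confidence interval of -0.24 to 0.27. A second tested probe set, 1425762_a_at, gave 0.14 ± 0.22 (SE), with the lower values in Tg 7, non-Tg 2 and non-Tg 3, the mice of the high bioC set. Within the low and high sets that probe set differed by -0.15 and 0.04. The contrast of the 2 Rxra probe sets differed by -0.13 with overlapping groups (exact permutation p = 0.7, adjusted 0.7). A further Rxra probe set lay below the filter, with log2 signals of 3.34 to 5.52 in Tg and 3.17 to 5.42 in non-Tg livers.

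The genes of the FGF receptor complex gave no call. Fgfr4 had log2 signals of 9.73, 9.75 and 9.49 in Tg livers, against 10.10, 9.59 and 9.67 in non-Tg livers. The groups overlapped, non-Tg 1 being the highest, and differed by -0.13 ± 0.17 (SE; limma adjusted p = 0.901), or by 0.03 without non-Tg 1. The 3 other tested Fgfr4 probe sets gave 0.48, -0.21 and 0.10, each with overlapping groups, and 2 of them carry the suffix by which the maker marks probes that can match other transcripts. Averaged over its 4 tested probe sets Fgfr4 differed by 0.06. The brightest probe set minus the mean of the other 3 was 1.72, 1.68 and 1.72 on the log2 scale in Tg livers, against 1.89, 1.86 and 2.12 in non-Tg livers. The groups lay apart, and the contrast differed by -0.25 (exact permutation p = 0.1, adjusted 0.133). How often such probe set contrasts lie apart over all genes was not computed, so their separation cannot be called unusual. A further Fgfr4 probe set lay below the filter, with log2 signals of 2.51 to 5.21 in Tg livers and none above 2.44 in non-Tg livers.

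The coreceptor differed more. Klb had log2 signals of 10.71, 10.23 and 10.27 in Tg livers, against 10.75, 10.84 and 10.47 in non-Tg livers. Tg 6 and Tg 7 lay below all non-Tg mice and Tg 5 lay among them. The difference was -0.28 ± 0.17 (SE), a ratio of 0.821 with a 95% confidence interval of 0.632 to 1.07, and did not pass (limma adjusted p = 0.824; exact permutation p = 0.2). It was -0.29 and -0.38 within the low and high bioC sets, and without Tg 5 it was -0.44. A second Klb probe set lay below the filter, with log2 signals of 2.02 to 3.41 in Tg and 3.55 to 4.94 in non-Tg livers.

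Over all 16 tested probe sets of the 9 genes, 0 passed by limma, against 0.00881% of the 22702 probe sets tested. At an unadjusted limma p under 0.05 there were 3, namely 1456521_at of Nr5a2, 1450444_a_at of Nr1h3 and 1451807_at of Nr1i2, against 5.76% of all probe sets. The same 3 were those without overlap between groups, against 11.1% of all probe sets. The difference had the same sign in both bioC sets for 7 of the 9 genes, against 54% of all genes. Each within-set difference rests on 1 mouse of 1 group, non-Tg 1 in the low set and Tg 7 in the high set. The 7 include Rxra, which was below 0 in both sets (-0.003 and -0.06) though its reported difference was 0.01.

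**Figure D3:**
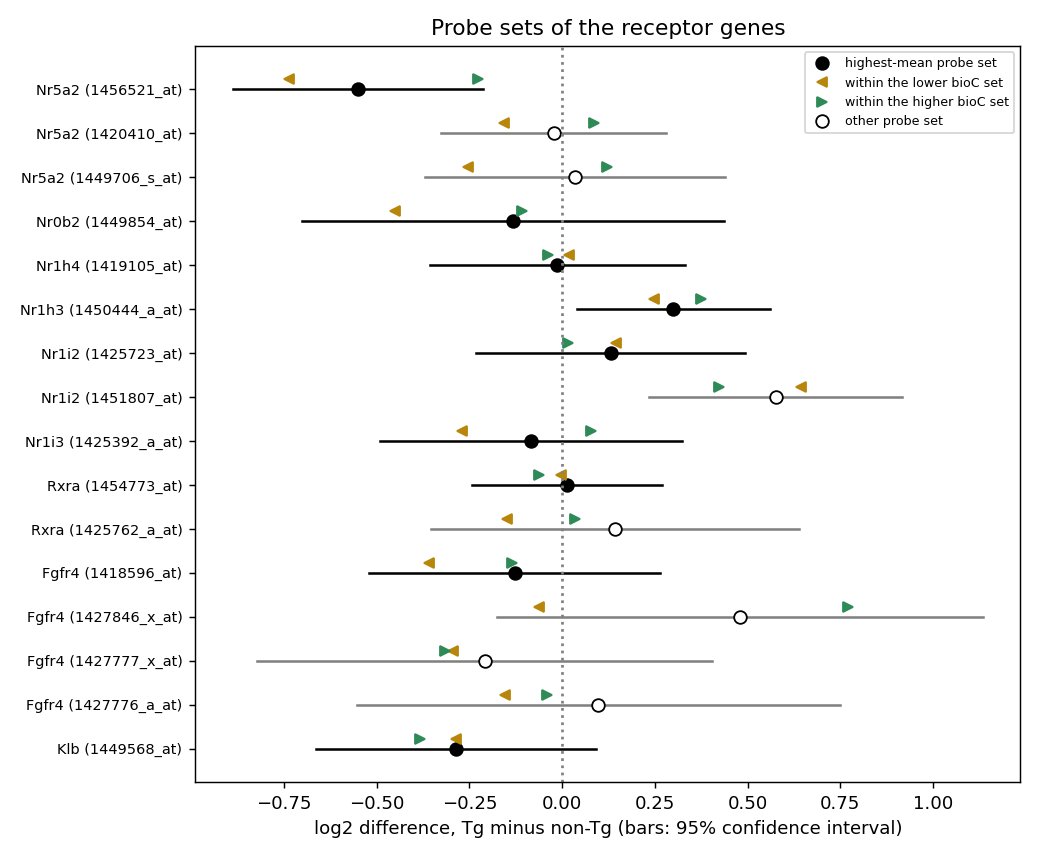
Log2 difference between Tg and non-Tg livers (x axis) for the 16 tested probe sets of the receptor genes, with the 95% confidence interval as a bar and the differences within the low and high bioC sets as triangles; filled circles mark the probe set that stands for the gene. The intervals of 1 Nr5a2, 1 Nr1h3 and 1 Nr1i2 probe set leave out 0, and none of the 16 passes after adjustment.

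No tested gene of FGF receptor signalling passed the test. Of 23 listed genes, which take in other FGF receptors and ligands (Fgfr1, Fgfr2, Fgfr3, Fgf1 and Fgf21) beside the steps downstream of FGFR4, 17 were tested, 0 passed in either direction, 11 were above and 6 below 0, and the median difference was 0.11. Dusp6, which inactivates ERK, had log2 signals of 9.72, 10.33 and 9.99 in Tg livers, against 10.90, 10.85 and 10.33 in non-Tg livers. All Tg values lay below the non-Tg values, Tg 6 and non-Tg 3 nearly touching, and the difference was -0.68 ± 0.20 (SE; limma adjusted p = 0.735). The immediate early factor Egr1 had log2 signals of 10.69, 8.98 and 8.51 in Tg livers, against 8.59, 7.86 and 8.39 in non-Tg livers. Tg 5 stood high, the groups overlapped, and the difference of 1.11 ± 0.48 (SE) did not pass (limma adjusted p = 0.807). Sos1, the exchange factor that loads Ras, differed by 0.12 with no overlap, while its other tested probe sets gave -0.01, -0.88 and 0.43. Spry4, a feedback inhibitor of FGF receptor signalling that is named here after its values were seen, differed by -0.65 ± 0.34 (SE; limma adjusted p = 0.820) on its highest-mean probe set, with overlapping groups. On its probe set 1445669_at it had log2 signals of 6.44, 7.58 and 6.72 in Tg livers, against 8.44, 8.37 and 8.22 in non-Tg livers. There all Tg values lay below the non-Tg values, and the difference was -1.43 ± 0.32 (SE; limma adjusted p = 0.655), or -1.43 and -1.57 within the low and high bioC sets. Of the 20 other tested probe sets of the list, 0 passed. The groups lay apart on 3, with 1 higher and 2 lower in Tg livers, against 11.1% of all probe sets. The ligand gene Fgf15 lay below the filter, with log2 signals of 4.63 to 5.84 in Tg and 5.22 to 6.19 in non-Tg livers, and so did the ileal markers Fabp6, Cdh17 and Vil1.

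Genes that FXR induces gave no call. Of 13 listed, Nr0b2 among them, 11 were tested, 0 passed, 3 were above and 8 below 0, with a median difference of -0.07. Abcb11, the bile salt export pump, had log2 signals of 13.19, 12.85 and 13.17 in Tg livers, against 13.16, 13.16 and 12.90 in non-Tg livers, a difference of -0.00 ± 0.12 (SE). Its groups overlapped almost fully. Abcb4, which moves phosphatidylcholine into bile, differed by 0.14 and Sdc1, a heparan sulfate proteoglycan, by -0.19, both without overlap and neither past the test (limma adjusted p = 0.826 and 0.820). The other Sdc1 probe sets gave 0.04, -0.12 and 0.17. Slc51b, a subunit of the basolateral bile acid exporter, lay below the filter.

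The best known enzymes that LRH-1 and SHP act on had positive differences that did not pass. Cyp7a1, which sets the rate of bile acid synthesis, had log2 signals of 13.29, 13.15 and 13.41 in Tg livers, against 12.92, 12.47 and 12.64 in non-Tg livers, a difference of 0.61 ± 0.13 (SE; limma adjusted p = 0.432). Cyp8b1, the sterol 12-hydroxylase of cholic acid synthesis, had 12.63, 13.10 and 13.30 in Tg livers, against 11.91, 12.37 and 12.75 in non-Tg livers, with 1 overlap, at Tg 5 and non-Tg 3. The order of 3 mice within a group is a description with no test, picked after the values were seen. In the non-Tg group, non-Tg 3 had the lowest Nr0b2 and the highest Cyp8b1 signal, and non-Tg 1 the reverse. In the Tg group, Tg 7 had the lowest Nr0b2 and the highest Cyp8b1, and Tg 5 the reverse. Across both groups that order did not hold, since non-Tg 3 had the lowest Nr0b2 but less Cyp8b1 than Tg 6 and Tg 7. For Cyp7a1 it did not hold in the non-Tg group, where non-Tg 1 was highest for Nr0b2 and Cyp7a1. Of the 8 tested LRH-1 targets 0 passed, 5 were above and 3 below 0, and the median difference was 0.06, which turned below 0 with centred arrays, averaged probe sets or the bioC block (-0.01, -0.02 and -0.01) and without Tg 5 (-0.01). Of the 19 bile acid synthesis genes, all tested, 0 passed, 8 were above and 11 below 0, and the median was -0.04, or 0.02 without non-Tg 1. A second Cyp7a1 probe set, 1422100_at, gave 0.62 with the groups apart. Akr1c6, a hydroxysteroid dehydrogenase, stood below 0 without overlap, at 15.22, 15.19 and 15.39 in Tg livers, against 15.46, 15.62 and 15.49 in non-Tg livers.

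LXR targets lay mostly below 0 while Nr1h3 lay above. Of 17 listed, all tested and Nr1h3 and Cyp7a1 among them, 0 passed, 4 were above and 13 below 0, with a median difference of -0.14. Srebf1, the regulator of fatty acid synthesis, had log2 signals of 13.31, 12.87 and 13.29 in Tg livers, against 13.53, 13.85 and 13.33 in non-Tg livers, a difference of -0.41 ± 0.16 (SE; limma adjusted p = 0.787). All Tg values lay below the non-Tg values, Tg 5 by a narrow margin. The cholesterol exporters Abcg5, Abcg8 and Abca1 differed by -0.37, -0.35 and -0.17, and none passed. Of these 3, the groups lay apart for Abca1 only, whose other probe sets gave 0.02 and -0.01. The list median was -0.04 within the low and -0.30 within the high bioC set.

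Targets of CAR and PXR gave no call. The groups lay apart, without passing, for 1 target higher and 3 lower in Tg livers, against 11.7% of all genes. The 2 of smallest p among them are given below. Of 28 listed, 21 were tested, 0 passed, 3 were above and 18 below 0, and the median difference was -0.14, or -0.06 without Tg 5 and -0.07 without non-Tg 3. Cyp3a11, the classic PXR target in mice, differed by -0.09 ± 0.08 (SE), and Cyp2c29 by -0.12 ± 0.09 (SE), both with overlapping groups. Cyp2b10, the classic CAR target, had log2 signals of 5.80, 10.60 and 9.67 in Tg livers, against 10.21, 9.005 and 9.23 in non-Tg livers. Tg 5 alone was low, near the filter at 5.63. Cyp2b9, its relative, had 6.39, 7.57 and 6.45 in Tg livers, against 9.34, 9.17 and 9.97 in non-Tg livers, a difference of -2.69 ± 0.35 (SE) that came close to the threshold (limma adjusted p = 0.0610). Gstm3, a glutathione transferase, had 12.96, 12.95 and 11.87 in Tg livers, against 10.65, 11.55 and 10.74 in non-Tg livers (limma adjusted p = 0.378). A second Gstm3 probe set, 1427473_at, gave 1.36 ± 0.25 (SE; limma adjusted p = 0.443). Of the 13 other tested probe sets of the list it was the 1 with groups apart. Cyp2b9 and Gstm3 both have close paralogs whose transcripts a probe set can share.

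Other nuclear receptors and coregulators gave no call. Among 13 RXR isoforms and partners, all tested, 6 were above and 7 below 0, with a median difference of -0.07, or 0.04 with probe sets averaged. Pparg, a receptor of fat storage, had log2 signals of 7.63, 8.39 and 7.65 in Tg livers, against 8.80, 8.46 and 8.92 in non-Tg livers. Its groups did not overlap, and the difference was -0.84 ± 0.26 (SE; limma adjusted p = 0.735). Rxrb, Rxrg and Ppara differed by 0.02, -0.41 and -0.07, with overlapping groups. Of 17 further nuclear receptors 14 were tested, 8 above and 6 below 0, with a median of 0.03 that turned below 0 with centred arrays, with the bioC block, and without Tg 5 or non-Tg 3. Hnf4a, which acts with LRH-1 at bile acid genes, differed by -0.01 ± 0.10 (SE) on its highest-mean probe set. Its other tested probe sets gave 0.38, -0.23 and 0.43, each with overlapping groups.

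The clock receptor gene Nr1d2 had the smallest p of these further receptors. Its log2 signals were 12.03, 12.03 and 12.05 in Tg livers, against 12.34, 12.55 and 12.41 in non-Tg livers, a difference of -0.40 ± 0.10 (SE; limma adjusted p = 0.729). The groups lay apart, and a second Nr1d2 probe set gave -0.55. Nr2f1, an orphan receptor, also lay apart, at 5.99 to 6.95 in Tg livers and 4.09 to 5.85 in non-Tg livers, near the filter. Of 21 coregulators 19 were tested, 0 passed, 10 were above and 9 below 0, and the median was 0.04, which turned below 0 with centred arrays, with the bioC block, and without Tg 6, non-Tg 2 or non-Tg 3. On the probe sets that stand for them 0 of the 19 had groups apart, against 11.7% of all genes. Of their 29 other tested probe sets 0 passed and 2 had groups apart, against 11.1% of all probe sets, both higher in Tg livers: 1437894_at of Prox1, a corepressor of LRH-1, at 0.92 ± 0.21 (SE; limma adjusted p = 0.735), and 1422737_at of the coactivator gene Ncoa3 at 0.49 ± 0.26 (SE; limma adjusted p = 0.848). The brightest Prox1 probe set gave 0.53 and that of Ncoa3 0.15, with overlapping groups. Both genes are named here after their values were seen. The coactivator gene Ppargc1a differed by 0.13 ± 0.27 (SE). Lists were chosen with earlier results known and carry no test, and they share genes: Cyp7a1 stands in 3 of them.

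**Figure D4:**
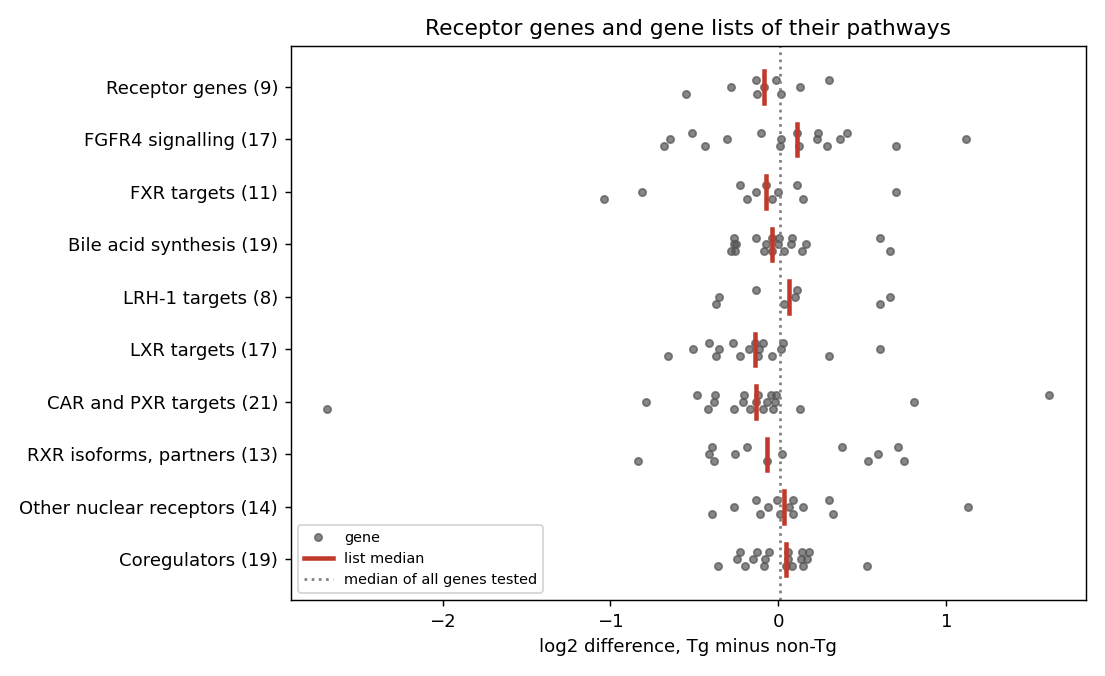
Log2 difference between Tg and non-Tg livers (x axis) for each tested gene of the receptor group and of 9 lists of their pathways, with the number of tested genes in brackets, the list median as a red bar and the median of all genes tested as a dotted line. The list medians lie between -0.14 and 0.11, and 0 genes of these lists pass the test.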

How the data were processed

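The deposited table holds the authors' log2 signals of 45101 probe sets on 6 arrays. The submitters' processing notes name GCOS; its version and algorithm and a genome build are not named there. The antilogged signals, trimmed by 2% at each end, average 500.0 on each array, so the deposited values were scaled to a common target. Median log2 signals ran from 6.49 to 6.74. Neither scanner files nor detection calls entered, and precision is limited by the number of arrays. The labels call each array an individual sample.

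After removing 64 control probe sets, probe sets with 1 gene symbol (34945, platform annotation) and a mean above the 40th percentile (log2 5.63) were kept, 22702 in all; the one with the highest mean stood for each of 12705 genes. Member symbols were matched by Entrez number to RefSeq (9 of 9). Groups were compared with limma 3.58.1 (R 4.3.3; lmFit, eBayes with intensity trend, 2-sided, Benjamini-Hochberg, threshold 0.05); SEs are moderated (9.61 degrees of freedom). Values of genes are adjusted over genes, those of further probe sets over probe sets. Exact permutation tests (scipy 1.17.1) used 20 assignments. The procedure was tested on simulated data. Members, lists, bioC sets and tests were chosen with earlier results of these data known. Named genes are the members, Retnla, 20 fixed targets, and from each list the 2 of smallest p without overlap; Ncor1 was not analysed here. Alternatives covered constants before the log, filters, scaling, moderation, probe set averaging, a bioC block and leaving out each mouse.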

Additional observations from a re-analysis of the deposited data

How the results depend on the processing

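No paired analysis was possible because the 2 groups share no replicate numbers. Under all 16 alternatives 0 members passed, and the differences of Nr5a2 (-0.70 to -0.18), Nr1h3 (0.23 to 0.32) and Klb (-0.44 to -0.20) kept their sign. The number of genes called among all, 2 as reported, was 4 and 6 with 16 and 64 added before the log, 5 with arrays centred on the median, 4 with robust variance and 4 with the bioC block, and 2 to 3 without single mice. Members without overlap, 2 as reported, were 1 (Nr5a2) with centred arrays and 2 to 4 without single mice, where 18.6% to 27.1% of all genes lay apart; without non-Tg 3 the 4 were Nr5a2, Nr1h3, Nr0b2 and Klb. Differences near 0 turned sign. Nr1h4 became 0.0041 with quantile normalization and lay between -0.16 and 0.15 without single mice. Rxra became -0.062 with centred arrays and -0.033 with the block, and lay between -0.068 and 0.069 without single mice. Fgfr4 became 0.060 with probe sets averaged and -0.23 to 0.029 without single mice; there too Nr0b2 lay between -0.47 and 0.072, Nr1i2 between -0.0009 and 0.20, and Nr1i3 between -0.29 and 0.049. The medians of bile acid synthesis and coregulator genes became -0.12 and -0.032 with centred arrays, the coregulator median -0.0038 with the block. Without single mice the medians ran from 0.027 to 0.15 for FGFR4 signalling, -0.062 to 0.018 for bile acid synthesis, -0.22 to -0.081 for LXR targets, -0.19 to -0.062 for CAR and PXR targets, -0.09 to -0.047 for FXR targets, -0.0086 to 0.065 for LRH-1 targets, -0.11 to -0.0016 for RXR partners, -0.055 to 0.13 for other nuclear receptors and -0.037 to 0.069 for coregulators. The LRH-1 target median became -0.011 with centred arrays, -0.017 with probe sets averaged and -0.012 with the block, that of RXR partners 0.037 with probe sets averaged, and that of other nuclear receptors -0.039 with centred arrays and -0.0049 with the block. The Nr5a2 probe set contrast ran from -0.72 to -0.40 over its alternatives. The causes were not tested. With 3 mice a group, the intervals above bound what could be seen.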
